A study of Mus musculus with 6 samples.

Results

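Ferritin, ceruloplasmin, the transferrin receptor and the metallothioneins handle iron, copper and zinc in the cell. The accessibility of the 6 mouse genes Ftl1, Fth1, Cp, Tfrc, Mt1 and Mt2 was examined in lung endothelial cells by ATAC-seq, in which a transposase cuts open chromatin and the cut sites are sequenced. A region was taken when the deposited table gave it the symbol of one of these genes. A region without any gene in the table was taken when the nearest protein-coding start site of the table, within 100 kb, was that of one of the genes. This gave 25 of 58172 regions, 14 by the table and 11 by distance. Higher values near Ftl1 and Cp in cells lacking cystathionine gamma-lyase were already known when the genes were chosen. All differences between the groups at the 25 regions are therefore a description, given without p-values. Where one of these regions is said to be called by limma, this only marks the size of its difference against the replicate spread, and neither a call nor its stability is evidence about the genes. The region just inside the 100 kb limit lay 94.0 kb from Cp. The next region beyond it lay 111.6 kb from Cp, with 31, 34 and 33 in WT against 21, 28 and 18 in CSE-KO.

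The series holds 3 libraries of Cre-negative cells (WT) and 3 of Cre-positive cells labelled CSE-KO, CSE being cystathionine gamma-lyase, the product of Cth. All 6 come from isolated mouse lung endothelial cells. For the strain, age and number of the mice, the targeted allele and the driver of Cre, the labels used here give nothing. Cre and the loss of the enzyme cannot be told apart, since every CSE-KO library is Cre-positive. Nothing in the labels says that the libraries came from separate animals, so the spread between them may be technical.

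Ferritin is a hollow shell of light (Ftl1) and heavy (Fth1) chains that stores iron, with the heavy chain oxidising it. Ceruloplasmin is a copper-containing ferroxidase that lets iron leave cells on transferrin, and the transferrin receptor brings transferrin-bound iron in. Metallothioneins are small cysteine-rich proteins that bind zinc and copper, and their genes are induced by zinc through the factor MTF-1, which binds metal response elements. Cysteine is also the amino acid that cystathionine gamma-lyase makes.

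The values are normalised read counts per region, and their totals were 5242490 to 5547417 per library. In the CSE-KO columns 35 to 39 of the whole numbers up to 100 never occur, so 1 read was worth 1.53 to 1.63 units there and these libraries rest on an estimated 3340000 to 3630000 reads in regions. No whole number was skipped in WT, where 1 read was worth no more than 1 unit. The Cth promoter region had 195, 157 and 167 in WT against 11, 6 and 2 in CSE-KO, which matches the labels of all 6 libraries. Of 10 endothelial markers, 9 had a promoter region, with a mean value per marker of 135 in WT and 150 in CSE-KO. They moved both ways: limma called Kdr (157 against 258) and Tek (163 against 267) higher in CSE-KO, and Tie1 (163 against 67.7) and Egfl7 (144 against 80) lower. Pecam1 was the marker without one. Markers were matched by gene symbol, so a gene that the table lists without a symbol counts as having no region. A missing match therefore does not show closed chromatin or the absence of a cell type. Promoter regions were found for 2 of 10 leukocyte, 3 of 10 epithelial, 4 of 10 mural and fibroblast and 2 of 8 erythroid markers, and none of these regions was at 0 in all libraries. Over all 58129 tested regions, 17.3% were called by limma (Benjamini-Hochberg adjusted p under 0.05), 7.7% higher and 9.6% lower in CSE-KO.

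Promoter sequences are shown for the genes on which the results turn, from RefSeq (GRCm38.p6, the assembly also called mm10), which matched all 6 genes in 9 windows of 250 bases before to 50 after a start site. The 250 bases upstream of Mt2, on the plus strand at chr8:94172368-94172617, lie inside the region that was most changed at the metallothioneins. Capitals mark each match to the metal response element core, TGCACNC or TGCGCNC on either strand, and to the antioxidant response element core TGACNNNGC.
Mt2: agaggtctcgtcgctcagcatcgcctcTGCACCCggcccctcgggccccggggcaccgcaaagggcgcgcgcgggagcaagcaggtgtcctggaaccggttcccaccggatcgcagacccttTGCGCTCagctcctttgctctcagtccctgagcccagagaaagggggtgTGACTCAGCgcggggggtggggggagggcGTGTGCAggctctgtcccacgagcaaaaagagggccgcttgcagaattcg
A further match to the metal response element, the last of 4, lies just past the start site, at bases 5 to 11 with the start site as 1. The antioxidant match at -79 to -71 also holds the AP-1 motif TGACTCA. Of 32851 RefSeq windows of this length, 25.7% held at least 1 metal response core, 0.517% at least 4, and 12.4% the antioxidant core. For Mt1 the 3 matches to the metal response core are shown as short stretches, from -23, from 3 and from 21, with the match in capitals.
Mt1 from -23: ggtcccgctgTGCACACtggcgctcca
Mt1 from 3: cagggagctcTGCACTCcgcccgaaaa
Mt1 from 21: gcccgaaaagTGCGCTCggctctgcca
At least 3 matches were found in 1.97% of all windows, and at least 2, overlapping ones included, in 7.11%. The upstream bases of the outer Tfrc start site, chr16:32608646-32608895 on the plus strand, hold a palindrome that matches the core once on each strand, marked in capitals.
Tfrc: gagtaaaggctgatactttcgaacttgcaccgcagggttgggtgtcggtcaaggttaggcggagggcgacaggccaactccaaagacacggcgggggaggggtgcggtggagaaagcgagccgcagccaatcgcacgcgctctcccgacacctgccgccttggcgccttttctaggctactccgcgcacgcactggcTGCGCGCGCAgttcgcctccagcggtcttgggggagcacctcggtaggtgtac
Neither ferritin gene and neither Cp window held the metal or the antioxidant core, which says only that these letters are not in these windows. The ferritin promoters are shown for their base composition, with CG pairs in capitals. The window of Ftl1 is chr7:45459887-45460136 on the minus strand, and that of the outer Fth1 start site is chr19:9980350-9980599 on the plus strand.
Ftl1: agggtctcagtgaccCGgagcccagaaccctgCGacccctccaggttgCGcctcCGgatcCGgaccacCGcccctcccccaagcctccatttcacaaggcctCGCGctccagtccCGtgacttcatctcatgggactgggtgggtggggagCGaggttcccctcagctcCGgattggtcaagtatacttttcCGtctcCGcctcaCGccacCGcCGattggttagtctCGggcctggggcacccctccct
Fth1, outer start: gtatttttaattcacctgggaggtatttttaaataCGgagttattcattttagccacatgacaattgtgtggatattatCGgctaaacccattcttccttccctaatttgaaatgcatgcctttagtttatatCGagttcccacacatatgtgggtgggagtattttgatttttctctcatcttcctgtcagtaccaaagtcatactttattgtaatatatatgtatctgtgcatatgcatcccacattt
The Ftl1 stretch holds 17 CG pairs and the outer Fth1 stretch 3. RefSeq has a second Fth1 start site 3' of the first, and its 300-base window held 27 CG pairs against 4 in the outer one, where the median of all windows was 7. A match to a motif is a description of the sequence and not a bound site.

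Of the 25 regions, all of which passed the filter of a mean of at least 5, 7 were called higher and 3 lower in CSE-KO. These are 28% and 12%, where 7.7% of all tested regions were called higher and 9.6% lower. The median log2 change was 0.11, beside 0.00 over all regions tested. The groups did not overlap at 12 of the 25 regions, 9 higher and 3 lower, where 39.5% of all regions did not overlap (19% higher and 20.5% lower). Nothing is read from these shares, because the genes were chosen on this contrast. Each of the 6 genes had at least 1 region called higher, and the 3 regions called lower were all assigned to Cp. All 3 of these, and the only call at Fth1, were assigned by distance. Among the 14 regions that the table itself assigns, 6 were called higher and 0 lower. Among the 4 regions within 1 kb of a start site, those of Mt2 and Tfrc were called higher and none lower, and among the 21 others 5 were called higher and 3 lower. The plot of values by library shows which regions separate the groups.

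**Figure D1:**
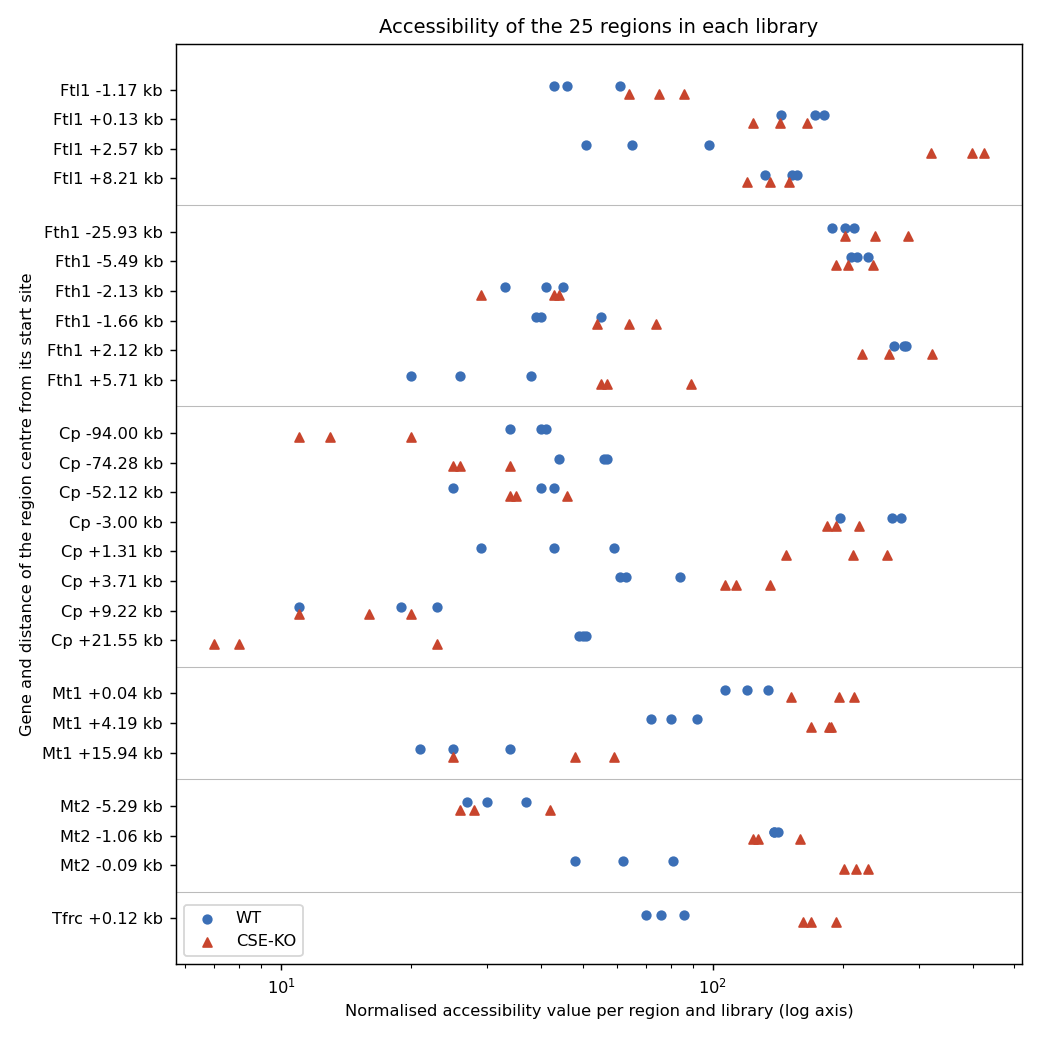
Normalised accessibility value (log axis) of each of the 25 regions in each library, with WT as circles and CSE-KO as triangles, ordered by gene and by the signed distance of the region's centre from its start site. The largest separations are at Ftl1 +2.57 kb, Cp +1.31 kb, Mt2 -0.09 kb and, downwards, Cp +21.6 kb.

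Ftl1, the ferritin light chain, spans chr7:45457944-45459884 on the minus strand and had 4 regions. The one that stood out lies past the end of the gene and not at its promoter. It runs from 45456877 to 45457743, 201 bp beyond the annotated 3' end, and had 98, 65 and 51 in WT against 425, 398 and 320 in CSE-KO. The lowest CSE-KO library was above the highest WT library by more than the whole WT range. The mean was 71.3 ± 24.1 against 381 ± 54.5 (SD, n = 3 each), a log2 change of 2.44 ± 0.27 (SE), or 5.44-fold on the log2(value + 1) scale. The promoter region, from 45459417 to 45460099, had 173, 181 and 144 in WT against 124, 165 and 143 in CSE-KO. Here the groups overlapped, and the log2 change was -0.21 ± 0.19. A small region 1.17 kb upstream of the start had 43, 61 and 46 against 75, 86 and 64, without overlap but not called. The region 8.21 kb from the start, farther past the 3' end, had 157, 153 and 132 against 136, 150 and 120, with overlapping groups.

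Light chain pseudogenes share sequence with the exons of Ftl1, and reads that fit several copies may be placed on any of them. The pseudogenes Ftl1-ps1 (chromosome 13), Ftl1-ps2 (chromosome 10) and Ftl2-ps (chromosome 4) were looked up in RefSeq by name. Copies of either chain under other names were not searched for. No region analysed here overlapped any of these 3 pseudogenes. The regions nearest to them were 15.3, 49.3 and 5.97 kb away, had log2 changes of 0.29, -0.28 and -0.19, and were not called. The Ftl1 promoter region overlaps the gene and its exon sequence could be shared with these copies, whereas the region past the 3' end lies outside the annotated gene. The labels do not say how multi-mapping reads were treated, and the part of shared reads in the Ftl1 values was not tested. The heavy chain pseudogenes Fth-ps2 and Fth-ps3 had no overlapping region either, and the nearest, 6.14 kb from Fth-ps3, was lower in CSE-KO (95, 98 and 83 against 44, 40 and 36).

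Fth1, the ferritin heavy chain, spans chr19:9980598-9985098 on the plus strand and had 6 regions. Its strongest region, from 9982326 to 9983120, lies 2125 bp from the start in the table but covers the second RefSeq start site, 77 bp from its centre. It had 277, 281 and 263 in WT against 222, 256 and 322 in CSE-KO. The CSE-KO libraries scattered on both sides of the WT libraries, with a log2 change of -0.05 ± 0.19. No region analysed here covers the outer start site, the one with few CG pairs. The weak region past the 3' end, 1.11 kb beyond it, had 20, 38 and 26 in WT against 57, 55 and 89 in CSE-KO. Every CSE-KO value there exceeded every WT value, and the log2 change was 1.24 ± 0.29. It was called, as the only one of the 6 regions, but not without WT replicate 1, WT replicate 3 or CSE-KO replicate 3, where the log2 change was 1.03, 1.21 and 1.02. The other 4 regions lay 1.66 to 25.9 kb upstream, overlapped between the groups and had log2 changes of -0.05 to 0.52. The farthest of them is nearer to the start site of a gene without a symbol in the table than to that of Fth1. At both ferritin genes the groups thus overlapped at the CG-rich promoter. CG content did not set these promoters apart from the others. The full windows held 20 CG pairs at Ftl1 and 27 at the second Fth1 start site. The Mt2 and Mt1 windows held 24 each and the Tfrc windows 30 each, and at those promoters the groups did not overlap.

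Cp, which encodes ceruloplasmin, spans chr3:19957054-20009145 on the plus strand and had 8 regions, which moved in opposite directions. No region analysed here covers either of its 2 RefSeq start sites, whose windows hold 2 and 4 CG pairs. Inside the gene, the region from 19958059 to 19958661, 1.31 kb past the start, had 59, 43 and 29 in WT against 211, 253 and 148 in CSE-KO. The groups were far apart, with a log2 change of 2.22 ± 0.31, or 4.66-fold. The next region, 3.71 kb past the start, had 63, 84 and 61 against 113, 107 and 136, a log2 change of 0.77 ± 0.20. Its call ended when any 1 of the 6 libraries was left out, with log2 changes of 0.67 to 0.92.

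Farther into the gene the order turned. The region 21.6 kb past the Cp start, from 19978387 to 19978822, had 51, 50 and 49 in WT against 23, 8 and 7 in CSE-KO. WT values were nearly equal and all CSE-KO values lower, with a log2 change of -2.09 ± 0.40, or 4.25-fold lower. This call ended without WT replicate 1, 2 or 3 (log2 changes of -2.07, -2.09 and -2.10). Upstream, the regions 94.0 and 74.3 kb away had 40, 34 and 41 against 13, 20 and 11, and 44, 56 and 57 against 26, 25 and 34. Neither pair of groups overlapped, and the log2 changes were -1.36 ± 0.24 and -0.87 ± 0.20. The farther call ended without WT replicate 1 or 3 (-1.33 and -1.32), the nearer one without any single library other than CSE-KO replicate 3 (-0.98 to -0.79). These far regions were assigned by distance alone, which does not show that they act on Cp. The most accessible Cp region, 3.00 kb upstream, had 273, 260 and 197 against 193, 218 and 184 and overlapped between the groups. The remaining 2 regions, 52.1 kb upstream and 9.22 kb into the gene, were weak and overlapped too.

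Tfrc, the transferrin receptor, had 1 region, at its promoter (chr16:32608674-32609410), which covers both RefSeq start sites. It had 76, 70 and 86 in WT against 162, 193 and 169 in CSE-KO. All CSE-KO values lay well above all WT values, at 77.3 ± 8.08 against 175 ± 16.3 and a log2 change of 1.17 ± 0.17, or 2.24-fold. Tfrc is very active in red cell precursors, so erythroid markers are given beside it. The summed value of the 2 erythroid marker promoters with a region, of 8 listed, was 63 to 90 in WT and 112 to 150 in CSE-KO, and the part of such cells in the Tfrc value was not tested. The 2 leukocyte marker promoters with a region, Spi1 and Cd68, summed to 247 to 284 in WT and to 175 to 186 in CSE-KO. For the 4 mural and fibroblast markers the sums were 198 to 204 and 254 to 281, and their part was not tested for any of the 6 genes. Of these 4, limma called Col1a1 alone (62.3 ± 10.1 against 134 ± 27), and Myh11 was lower in every CSE-KO library (44.3 ± 0.577 against 28.3 ± 11.7).

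Mt2 and Mt1 lie next to each other on the plus strand of chromosome 8 (94172664 to 94173568 and 94179082 to 94180327) and had 3 regions each. The Mt2 promoter region, from 94172282 to 94172861, had 48, 62 and 81 in WT against 229, 201 and 215 in CSE-KO. It holds the metal response cores printed above, and its lowest CSE-KO value was more than double its highest WT value. The mean was 63.7 ± 16.6 against 215 ± 14, a log2 change of 1.77 ± 0.22, or 3.41-fold. Only 1.06 kb upstream, a separate Mt2 region had 139, 139 and 142 against 127, 124 and 159, with overlapping groups and a log2 change of -0.04 ± 0.17. The third Mt2 region, 5.29 kb upstream, was weak and had a log2 change of 0.01 ± 0.23.

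The Mt1 promoter region, from 94178842 to 94179399, had 120, 107 and 134 in WT against 152, 196 and 212 in CSE-KO. The groups did not overlap, yet the log2 change of 0.62 ± 0.19 was not called. It was called with the trend and robust options of limma and, at 0.76, without CSE-KO replicate 1. A region 2.73 kb past the 3' end of Mt1 had 92, 80 and 72 against 186, 188 and 169. The mean was 81.3 ± 10.1 against 181 ± 10.4, and the log2 change was 1.15 ± 0.17, or 2.22-fold. The region 15.9 kb past the Mt1 start had 21, 34 and 25 against 59, 25 and 48, so that CSE-KO replicate 2 lay among the WT values. Without that library the region was called, at a log2 change of 1.00. Mt3 and Mt4, the other members of the cluster, are in the zinc list below, and none of their 3 regions was called by limma or had an unadjusted p under 0.05.

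Of the 10 calls, those at Ftl1 +2.57 kb, Cp +1.31 kb, Mt2 -0.09 kb, Mt1 +4.19 kb and Tfrc +0.12 kb held under each of 11 other settings, among them leaving out each library. Without WT replicate 1 or WT replicate 3 only these 5 of the 25 regions were called. Over all regions the calls then fell from 10057 to 3602 and 3519. After the values were seen, the regions past a 3' end were set side by side. The nearest such region of Ftl1 (0.201 kb), Fth1 (1.11 kb) and Mt1 (2.73 kb) was called higher in each case, and the farther ones of Ftl1 (5.88 kb) and Mt1 (14.6 kb) were not called. Over all regions 7.7% were called higher, and the Fth1 call held in 7 of the 11 settings. No pattern of 3' ends is read from this, because the genes were chosen on this contrast.

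Per kb of region, the start sites can be ranked. In WT the value per kb was 345 ± 11.9 at the second Fth1 start, 243 ± 28.5 at Ftl1, 216 ± 24.2 at Mt1, 110 ± 28.6 at Mt2 and 105 ± 11 at Tfrc (SD, n = 3 each). Fth1 stood above all others in every WT library. Ftl1 (211 to 265) and Mt1 (192 to 241) overlapped, as did Mt2 (82.9 to 140) and Tfrc (95.1 to 117), so neither pair has an order. In CSE-KO the value per kb was 371 ± 24.2 at Mt2, 336 ± 64 at Fth1, 335 ± 55.8 at Mt1, 237 ± 22.1 at Tfrc and 211 ± 30.1 at Ftl1. There Mt2, Fth1 and Mt1 overlapped, and so did Tfrc and Ftl1. Mt2 thus stood among the lowest of the 5 start sites in WT and among the highest in CSE-KO. Ftl1 went from the middle to the lower end in rank only, since its own groups overlapped (211 to 265 against 182 to 242).

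**Figure D2:**
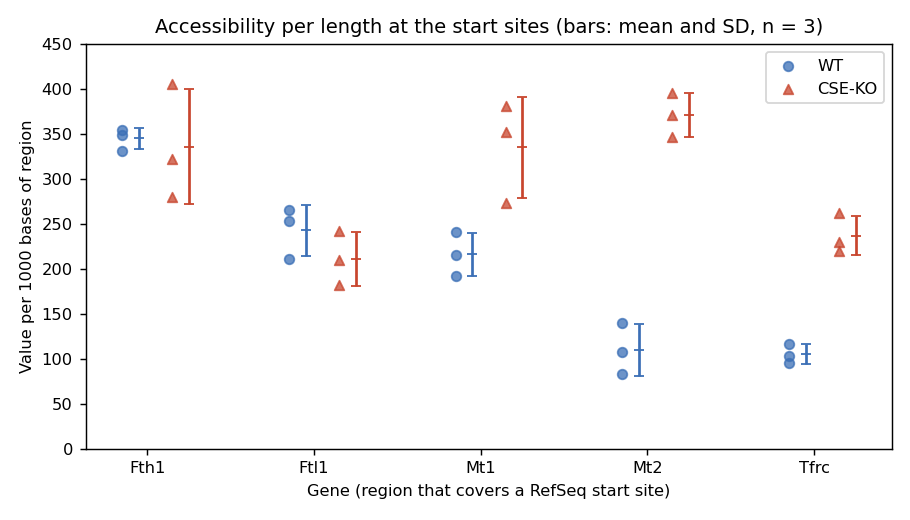
Accessibility per kb of the region that covers a RefSeq start site, for each library (points) with mean and SD (bars, n = 3), in WT and CSE-KO. Mt2 goes from 110 to 371 per kb, while Fth1 and Ftl1 overlap between the groups.

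Replicate spread differed between regions. At the Mt2 region 1.06 kb upstream the coefficient of variation was 1.24% in WT and 14.2% in CSE-KO, and at Cp +21.6 kb it was 2% and 70.8%. At the Ftl1 region past the 3' end the order was the reverse, with 33.8% in WT and 14.3% in CSE-KO, and WT replicate 1 was its highest WT library. WT replicate 1 was also the highest WT library at Cp +1.31 kb and the lowest at the Mt2 promoter.

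Regions near these genes that belong to other genes, or to none, were tested by limma. The regions of the 6 genes themselves are left out, and these genes were chosen on this contrast. The share called among the rest therefore cannot show how local the differences are. Near the metallothioneins the regions of Mt1 and of Mt2 are left out alike. Within 100 kb of the 6 start sites there were 56 regions of other genes or none. Of these, limma called 3 higher and 1 lower (7.14%, against 17.3% of all regions), with a median log2 change of 0.06. Near Ftl1, 1 of 15 was called, a weak region 4.30 kb from Bax, a gene of cell death (18 ± 1 against 31.3 ± 2.52, adjusted p = 0.0201). Near Tfrc, 2 of 12 were called, both nearest to Tnk2, a tyrosine kinase gene. The first lies 1.88 kb from its start (log2 change 0.91, adjusted p = 0.0134), and the other was assigned by distance alone, 45.1 kb away (0.90, adjusted p = 0.0457). Near Fth1, 1 of 17 was called, a weak region without a gene symbol at -39.3 kb that had 16, 19 and 21 in WT against 5, 3 and 3 in CSE-KO (adjusted p = 0.00369). None of the 9 regions shared by the neighbourhoods of Mt1 and Mt2 and none of the 3 near Cp was called by limma, and 1 in each set had an unadjusted p under 0.05. Switching on trend and robust in limma gave 10 of the 56, and without WT replicate 1, 2 or 3 they were 1, 1 and 2. Over all regions these settings called 15448, 3602, 3684 and 3519, against 10057 in the main fit.

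**Figure D3:**
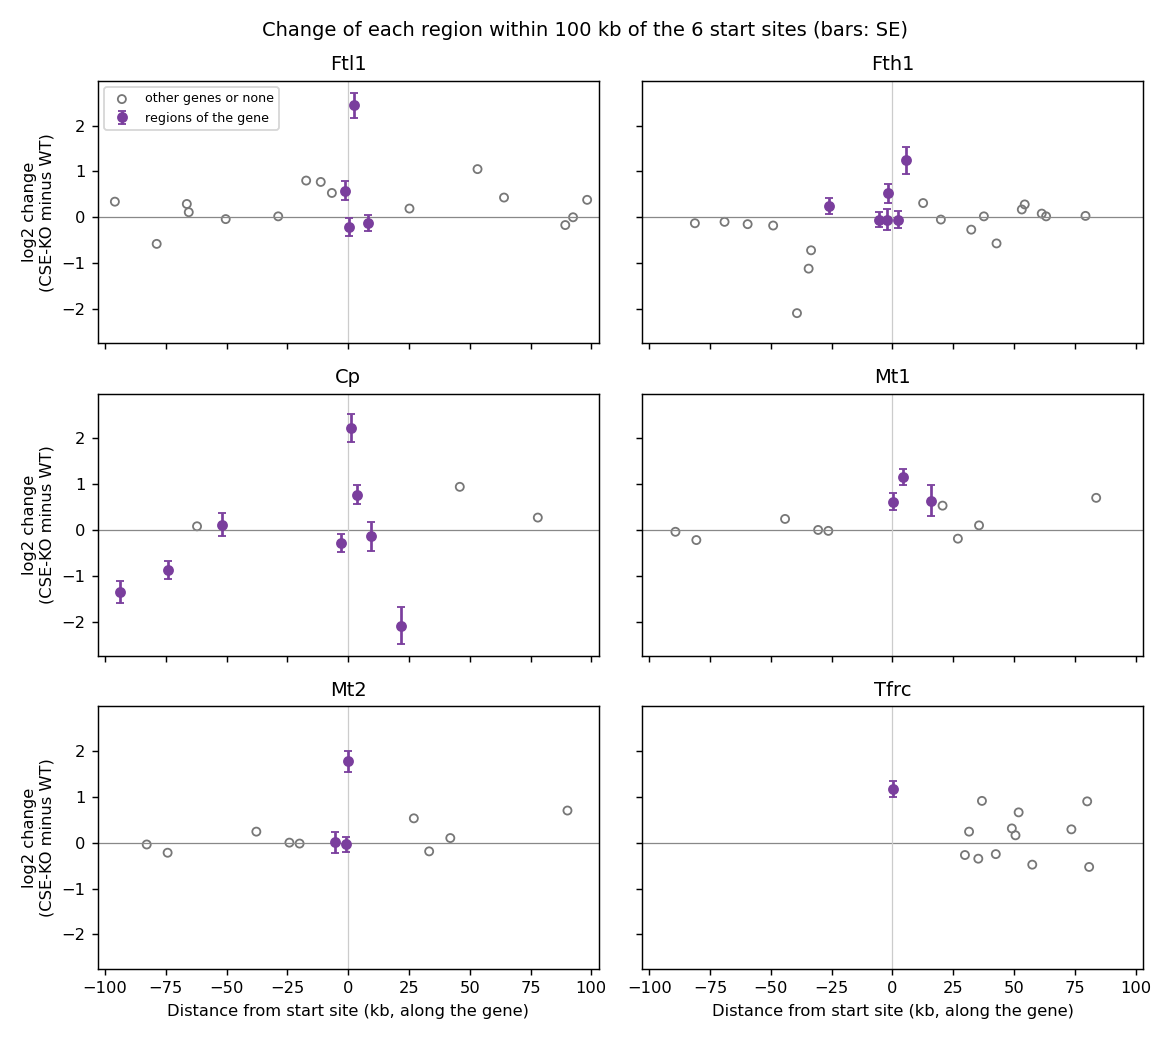
Log2 change (CSE-KO minus WT) of each region within 100 kb of the start site of the 6 genes, against its distance along the gene, with the genes' own regions filled (bars are SE) and regions of other genes or none open. The 4 highest points are Ftl1 +2.57, Cp +1.31, Mt2 -0.09 and Fth1 +5.71 kb, and the Cp regions 21.6 kb into the gene and 74.3 and 94.0 kb upstream lie below 0.

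Further genes of iron, zinc and copper handling were listed by their known function, with earlier results of these data known. Of 91 listed genes 61 had regions under a symbol of the table, 171 in all. In these, limma called 10 higher and 13 lower (5.85% and 7.60%, against 7.7% and 9.6% of all regions), with a median log2 change of 0.00. Promoter regions had 5 higher and 1 lower of 61, and other regions 5 higher and 12 lower of 110. The same tilt was present over all regions, with 693 higher and 436 lower of 13246 promoter regions and 3785 higher and 5143 lower of 44883 others. The share called is not above that of all regions. Without WT replicate 1, 2 or 3 the count of 23 dropped to 9, 8 and 7. Switching on the trend and robust options of limma gave 43. Over all regions the count went from 10057 to 3602, 3684 and 3519 without these WT replicates, and to 15448 with the options.

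Iron genes had 8 regions higher and 4 lower of 79, in 30 of 44 listed genes. Near Slc40a1, which encodes the iron exporter ferroportin, a region 9.16 kb from the start rose from 38, 39 and 40 to 78, 92 and 59 (log2 change 0.93 ± 0.20, adjusted p = 0.0237). Its promoter region did not pass the test (182 ± 13.1 against 191 ± 20.3, adjusted p = 0.814). A region 5.79 kb from Ncoa4, the receptor that delivers ferritin to lysosomes, rose from 44 ± 10 to 83 ± 6.93 (adjusted p = 0.0274), while its promoter had 201 ± 19.7 and 259 ± 19 (adjusted p = 0.169). Of the promoter regions of Pcbp1 and Pcbp2, poly(rC)-binding proteins that carry iron to ferritin, 1 each rose, 2.36-fold and 1.80-fold (adjusted p = 0.017 and 0.0361). The Pcbp2 region falls outside the naming rule and was chosen after its values were seen. Promoters of Mcoln1, a lysosomal cation channel, and Lrp1, an endocytic receptor that takes up haem with hemopexin, rose 1.69-fold and 2.15-fold (adjusted p = 0.0209 and 0.0191). A region 56.4 kb from Bmp6, the signal that induces hepcidin, rose 1.91-fold (adjusted p = 0.0227).

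Falls in the iron list lay outside promoters. A region 31.4 kb from Aco1, the iron regulatory protein 1, fell from 131 ± 23.7 to 57.3 ± 17 (adjusted p = 0.0213). A weak region 23.7 kb from Flvcr2 fell from 14, 22 and 14 to 2, 0 and 5 (adjusted p = 0.0248). The promoters of Aco1, of Ireb2 (the iron regulatory protein 2) and of Hmox1 (haem oxygenase 1) did not pass the test, with log2 changes of -0.10 ± 0.17, 0.23 ± 0.19 and -0.03 ± 0.18. For Hmox1 and Aco1 the sign of this small change turned without WT replicate 1 (0.07 and 0.01), and for Hmox1 also without CSE-KO replicate 1 (0.05).

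Zinc genes had 2 regions higher and 3 lower of 42, in 17 of 27 listed genes. Mtf1, which encodes the zinc-sensing activator of the metallothionein genes, had 245 ± 29.7 and 224 ± 8.08 at its promoter (adjusted p = 0.64). A region 6.52 kb from its start fell from 86, 59 and 70 to 38, 28 and 15 (log2 change -1.45 ± 0.34, adjusted p = 0.0292). Slc30a1, a zinc exporter, had 370 ± 52 and 362 ± 92.7 at its promoter (adjusted p = 0.897), and a region 48.6 kb away fell 1.64-fold (adjusted p = 0.0397). A region 20.6 kb from Slc30a4, another zinc transporter, rose from 8, 3 and 2 to 52, 43 and 59 (log2 change 3.45 ± 0.40, adjusted p = 0.00435). The promoter of Slc30a6 rose 1.63-fold (adjusted p = 0.0247), and a region 5.00 kb from Slc30a9 fell 2.25-fold (adjusted p = 0.032).

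Copper genes had 0 regions higher and 6 lower of 50 by limma, in 14 of 20 listed genes, and 4 of the 6 belonged to Xiap. At an unadjusted p under 0.05, 2 copper regions were higher, and trend and robust options called 1. A region 53.7 kb from Atp7a, a copper-exporting ATPase, fell from 78, 75 and 82 to 21, 25 and 21 (log2 change -1.77 ± 0.16, adjusted p = 0.00277), while the promoter had 123 ± 20.8 and 141 ± 50.8 (adjusted p = 0.73). A region 8.72 kb from Xiap, an inhibitor of apoptosis that also takes part in copper homeostasis, fell from 27 ± 7.21 to 9.33 ± 1.15 (adjusted p = 0.00958), and its promoter region from 83 ± 9.64 to 20 ± 10.1 (adjusted p = 0.0104). The Xiap promoter was chosen after its values were seen. A region 60.6 kb from Cox11, an assembly factor of cytochrome c oxidase, fell 1.57-fold (adjusted p = 0.0367). No region was assigned to the copper importer Slc31a1, though one listed without a symbol would be missed.

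Of these 17 called regions taken by the naming rule, 4 were called by limma in every alternative, among them those near Slc30a4, Atp7a and Xiap. The other 13 lost the call in at least 1 alternative without a change of sign. Without WT replicate 1, 2 or 3, limma no longer called 10, 12 and 13 of the 17, with adjusted p of 0.0655 to 0.129, 0.0623 to 0.12 and 0.0536 to 0.118. Without CSE-KO replicate 1, 2 or 3 they were 3, 3 and 5, with adjusted p of 0.0574 to 0.0807, 0.051 to 0.0752 and 0.0505 to 0.0829.

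**Figure D4:**
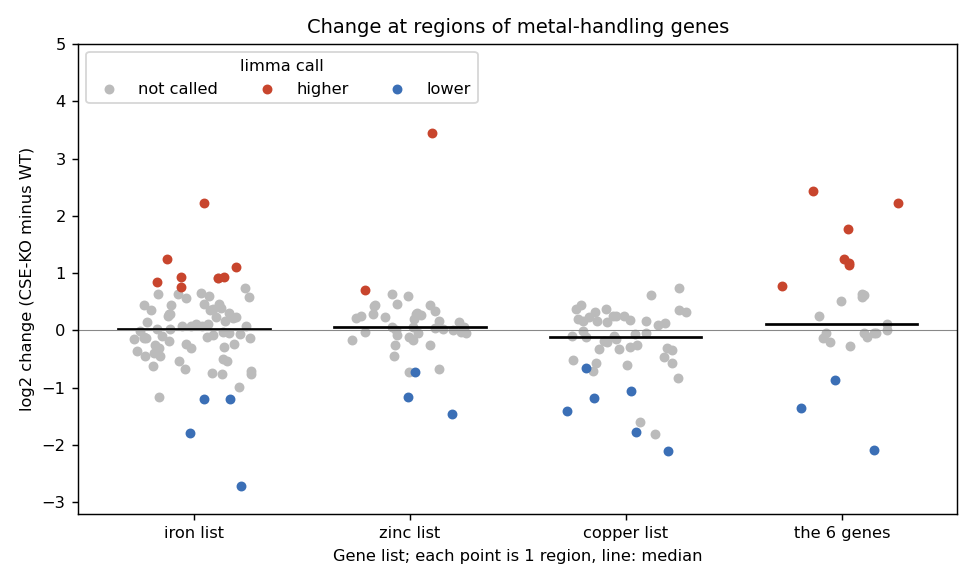
Log2 change (CSE-KO minus WT) of each region of the iron, zinc and copper lists and of the 6 genes, with regions called higher or lower by limma in colour and a line at each median. The medians are 0.02, 0.06, -0.11 and 0.11, and the copper list has no region called higher.

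For the region of each gene with the highest mean over the 6 libraries, the promoter regions with the most similar course over the 6 libraries were sought among 11095. Likeness was the Euclidean distance between centred log2(value + 1) profiles, and it is a description. The mean includes the CSE-KO libraries and so draws on the contrast: in WT alone the highest means were 166 at the Ftl1 promoter and 140 at the Mt2 region 1.06 kb upstream, in place of the regions used here. The Ftl1 region past the 3' end was nearest to the promoters of Stx1a and Nppa, at distances of 0.91 and 0.93. Neither came as near to it as Osmr did to the Mt1 promoter (0.11) or Itga7 to Tfrc (0.13). The Mt2 promoter region was nearest to Ccr3, at 0.49, whose promoter went from a mean of 18.7 in WT to 57.3 in CSE-KO. The strongest Fth1 and Cp regions were nearest to promoters with small differences between the groups, H3c1 (0.09) and Nudt14 (0.15). Profiles over 6 libraries in 2 groups are alike mainly in the size of the group difference.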

How the data were processed

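The genome build was mm10, and the tools named are DESeq2 1.26.0, Picard 3.1.1, STAR 2.7.3a and Trimmomatic 0.39, as listed per the submitters' processing notes. Which step each did, the peak caller and any Tn5 shift are left unstated there. The deposited values were taken as a score: whole numbers with nearly equal totals and, in CSE-KO, skipped values, which look like read counts divided by a size factor and rounded. A model for raw counts was therefore not used, and where reads could not be recovered the depth is known only as a bound.

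limma 3.58.1 (R 4.3.3; eBayes, trend and robust off) compared log2(value + 1) between CSE-KO and WT over 58129 regions (mean value 5 or more), with Benjamini-Hochberg adjustment at 0.05. The scale understates changes of weak regions. The script was tested on simulated data. The members and lists were chosen with earlier results of these data known. Names followed a rule: every region of the 6 genes, up to 6 genes per direction in each list by smallest p, the region nearest the start of 9 further genes and of Cth, and the 2 nearest promoter profiles per gene. A few items that the rule names are not reported here. Alternatives were another pseudocount (5), no filter, trend and robust options, median-ratio factors, a replicate block, other distances (50 kb, or the table's symbols alone) and leaving out each library. RefSeq synonyms matched list symbols that the table spells differently.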

Additional observations from a re-analysis of the deposited data

How the results depend on the processing

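Over all regions limma called 10057. The count was 15448 with trend and robust options, 6013 with a replicate block, and 3519 to 8922 when 1 library was left out. For the 6 genes the count of 10 was 6 with the table's own symbols alone, 7 with a replicate block and 5 to 9 with 1 library left out. For the metal-handling lists the count of 23 was 43 with trend and robust options, 14 with a replicate block, 7 with the table's own symbols alone (80 regions in place of 171) and 7 to 23 with 1 library left out. For neighbouring regions the count of 4 was 10, 2 with the block, and 1 to 5. Same-numbered libraries share only a number (residual correlations -0.006, -0.011 and 0.010), not every library correlated best with its own number, and a block uses up degrees of freedom. The block ended the calls at Fth1 +5.71 kb, Cp +3.71 kb and Cp 74.3 kb upstream, and, among the named regions of the lists, those near Bmp6, Cox11, Mcoln1, Slc30a1, Slc30a6 and Slc40a1 (limma adjusted p of 0.0556 to 0.0888). Pseudocount 5, no filter, median-ratio factors and 50 kb kept each of these counts within 1.5 times where they were run.

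Log2 changes at the 25 regions moved by less than the spread between replicates in all 275 recomputed values. This count could hardly differ and is no evidence of stability. Trend and robust options, no filter and the block leave a log2 change as it is. Leaving out 1 of 3 libraries shifts a group mean by less than the replicate spread. Among 26 other named regions, 225 of 286 values kept direction and side of the threshold. Signs turned at 7 values of promoters that were not called: Hmox1 (0.05 and 0.07 without CSE-KO or WT replicate 1), Aco1 (0.01), Slc30a1 (0.17, 0.01 and 0.00 without CSE-KO replicate 1 or WT replicate 1 or 3) and Atp7a (-0.11 without CSE-KO replicate 1). The log2 changes with 1 library left out ran from -0.10 to 0.07 for Hmox1, -0.16 to 0.01 for Aco1, -0.20 to 0.17 for Slc30a1 and -0.11 to 0.38 for Atp7a. The cause was not tested. The Ncoa4 promoter passed the threshold with trend and robust options (adjusted p = 0.0499). With fewer reads than in WT, the CSE-KO values of weak regions are the least precise.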
